A study of Mus musculus with 2 samples.

Results

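Haptoglobin (*Hp*) and 5 other acute-phase genes, *Saa3*, *Cp*, *Steap4*, *Serpina3n* and *Serpina3g*, were followed through the cells of the mouse temporomandibular joint (TMJ), the joint of the jaw, after an injection that inflames it. Each of the 6 genes was matched by its symbol to 1 row of the 32285 genes in both count matrices. They were chosen by their UMI levels across cell types and between the injections in these same data, and for *Hp* by which fibroblasts held it, so those values are given as descriptions with no test. The question the libraries address is how joint cells differ between a joint injected with complete Freund's adjuvant (CFA), a killed mycobacterial suspension in oil that causes lasting local inflammation, and a joint injected with phosphate-buffered saline (PBS).

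Both groups were female wild-type C57BL/6 mice aged 8 to 10 weeks. PBS animals received 10 μL of saline and CFA animals received 10 μL of adjuvant at 5 mg/mL, and the joints were taken 3 weeks later. Per the methods, joint tissue (n = 3, the unit not stated) went into 1 digestion in each group and CD45-positive cells were depleted with magnetic beads. From the rest 1 library of 3′ tags was made, so the immune cells described here are those that were left. With 1 library in each group no difference has a replicate check, and every interval below is a 95% interval for counting error only.

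The PBS library held 7671 barcodes and the CFA library 5709, with 51146169 and 53517206 unique molecular identifiers (UMIs, counted transcripts). Cells with at least 500 genes, at most 10% mitochondrial UMIs and at most 1% hemoglobin UMIs were kept, which left 2667 PBS and 4014 CFA cells with medians of 7022 and 6509.5 UMIs. The hemoglobin limit alone took out 3178 PBS but 339 CFA barcodes, and 2 barcode sequences occurred among the kept cells of both libraries. The cells formed 36 clusters, clustered without the 6 genes and their related lists, and 29 clusters received 1 of 15 class names from canonical markers. Levels are UMIs of a gene per 1000000 UMIs of the cells described (CPM).

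The acute-phase response is the set of plasma proteins that inflammation raises, classically in the liver under interleukin-6 and interleukin-1, and several of its genes are also used outside the liver. Haptoglobin binds free hemoglobin and hands it to the scavenger receptor CD163, and neutrophil precursors store it in their granules. Serum amyloid A3 is the member of its family made by macrophages, adipocytes and stromal cells rather than by hepatocytes. Ceruloplasmin (*Cp*) is a copper-carrying ferroxidase, Steap4 is a metalloreductase known from adipose tissue and inflammation, and *Serpina3n* and *Serpina3g* encode serine protease inhibitors of a cluster that has multiplied in the mouse.

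By the GENCODE annotation of GRCm38, the build of the files, all 6 are protein-coding. *Hp* lies on the minus strand at chr8:109575128-109579172, *Saa3* on the minus strand at chr7:46711998-46715700, *Cp* on the plus strand at chr3:19957054-20009145, and *Steap4* on the plus strand at chr5:7960457-7982213. *Serpina3g* (chr12:104236245-104241939) and *Serpina3n* (chr12:104406729-104414329) lie on the plus strand of one chromosome, 164789 bases apart. *Saa3* and both *Serpina3* genes have close paralogs, and reads shared between copies can be lost or misplaced in counting, so their levels are less certain.

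The 250 bases before the RefSeq start of the 4 members with a single window there (GRCm38.p6, 5′ to 3′ on the gene's strand) are shown, each with a match to a motif below. *Hp* was not matched, and *Cp* had 2 windows, not shown, 1 with the C/EBP-type motif and the other with no match. Capitals mark letters of the STAT-type motif TTCNNNGAA, the C/EBP-type motif TTGCNNAA or an NF-kB-type motif of GGG, any 2 bases and TTTCC, searched on both strands.
Saa3 (chr7:46715677-46715926): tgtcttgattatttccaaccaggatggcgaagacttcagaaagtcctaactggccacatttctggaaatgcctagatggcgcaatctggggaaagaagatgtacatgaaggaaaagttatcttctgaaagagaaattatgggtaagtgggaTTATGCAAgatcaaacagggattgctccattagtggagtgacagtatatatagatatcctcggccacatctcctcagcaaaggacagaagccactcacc
Steap4 (chr5:7960222-7960471): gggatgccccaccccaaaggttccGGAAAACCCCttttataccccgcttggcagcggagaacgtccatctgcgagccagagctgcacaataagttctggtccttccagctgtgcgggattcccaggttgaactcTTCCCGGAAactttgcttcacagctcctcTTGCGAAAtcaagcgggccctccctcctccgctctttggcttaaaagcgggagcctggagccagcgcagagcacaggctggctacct
Serpina3n (chr12:104406458-104406707): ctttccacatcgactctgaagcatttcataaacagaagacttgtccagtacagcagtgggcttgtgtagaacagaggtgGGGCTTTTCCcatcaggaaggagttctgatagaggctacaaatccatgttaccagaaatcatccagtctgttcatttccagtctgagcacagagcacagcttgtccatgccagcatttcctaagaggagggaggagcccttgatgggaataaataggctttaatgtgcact
Serpina3g (chr12:104235897-104236146): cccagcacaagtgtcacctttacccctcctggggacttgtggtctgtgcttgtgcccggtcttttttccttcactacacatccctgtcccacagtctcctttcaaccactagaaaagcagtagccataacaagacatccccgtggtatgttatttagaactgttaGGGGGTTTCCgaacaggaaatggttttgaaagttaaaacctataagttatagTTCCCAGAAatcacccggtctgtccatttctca
The *Steap4* window held 1 match to each of the 3 motifs, which do not overlap, and *Serpina3g* held the STAT-type and the NF-kB-type motif. The *Saa3* window held the C/EBP-type motif and *Serpina3n* the NF-kB-type motif. Of 32851 promoter windows of this length, 7.02% held the STAT-type, 9.56% the C/EBP-type and 1.41% the NF-kB-type motif. A match describes letters and is no shown site of binding.

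*Hp* differed between the libraries far more in fibroblast-like than in neutrophil-like cells. In the PBS library it was highest in neutrophil-like cells at 1091 CPM (interval 1021 to 1165; 72 cells) and was 4.35 CPM (2.76 to 6.52) in the 468 fibroblast-like cells. In the CFA library neutrophil-like cells stood at 1205 CPM (1166 to 1245; 345 cells), and the 371 fibroblast-like cells at 1252 CPM (1223 to 1282), so the intervals of both classes overlapped. The ratio of CFA to PBS was 288 (192 to 455) in fibroblast-like cells, from 23 and 6993 UMIs, and 1.10 (1.03 to 1.19) in neutrophil-like cells. Over other ways of processing the fibroblast-like ratio ran from 81.6, with classes given to single cells instead of clusters, to 1057 (292 to 8750), without cells holding a UMI of the neutrophil genes Ngp, Camp, Ltf, S100a8 or S100a9. The latter left 202 PBS and 63 CFA cells, with 2 and 654 *Hp* UMIs. The neutrophil-like ratio lay between 0.87 and 2.21 over other ways of processing, on either side of 1, and gives no direction. The makeup of the class also differed, with 6 PBS and 126 CFA cells in a cluster led by Il1f9. In the main processing the cluster led by Camp alone was at 1157 and 1317 CPM, a ratio of 1.14 (1.06 to 1.23). Over the 7460 genes that reached 10 UMIs in both libraries, the median ratio in neutrophil-like cells was 0.858, a log2 shift of -0.22, and the *Hp* ratio relative to it was 1.29.

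Below these, *Hp* stood at 652 CPM in 262 osteoclast-type macrophage-like cells, led by Mmp12 and Dcstamp and found in the CFA library alone, and at 324 CPM in 319 macrophage-like cells. These classes held 29.1% and 6.997% of all CFA *Hp* UMIs, fibroblast-like cells 34.3% and neutrophil-like cells 17.6%. In the PBS library fibroblast-like cells held 23 of 2126 *Hp* UMIs. Of the osteoclast-type macrophage-like cells 95.8% held an *Hp* UMI, and of the macrophage-like cells 58.6%. These shares are without thinning, at medians of 31830 and 12342 UMIs. In an unnamed cluster led by Prtn3, a granule protease of early neutrophil and monocyte precursors, *Hp* was 519.8 CPM in PBS and 738 CPM in CFA.

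In PBS osteocyte-like cells, given below, stood second at 562 CPM. In the mural-like cluster led by Actg2 with Rgs5 and Kcnj8, *Hp* was 3.26 CPM in PBS, from 3 UMIs, and 206 CPM in CFA. Schwann-like cells, which should lack it, were at 2.62 CPM in PBS and 14.1 CPM in CFA, B cell-like cells at 9.40 and 9.76 CPM, and endothelial-like cells at 2.32 and 8.34 CPM. In PBS the neighbouring levels from tenocyte-like cells (19.6 CPM) down to chondrocyte-like cells (1.15 CPM), fibroblast-like cells among them, had overlapping intervals. In CFA the next 5 levels, of osteoclast-type macrophage-, macrophage-, erythrocyte- (147 CPM), mural- (92.7 CPM) and tenocyte-like cells (63.0 CPM), did not overlap their neighbours in counting error. Single cells carried much of the last 3. In CFA 1 cell held 46 of the 106 *Hp* UMIs in erythrocyte-like, 67 of 210 in mural-like and 49 of 88 in tenocyte-like cells, and in PBS 1 cell held 93 of 176, 28 of 32 and 32 of 41, so the order of these classes rests on few cells. Satellite cell-like cells, muscle stem cells with Pax7, held 0 *Hp* UMIs in PBS and 1 in CFA.

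**Figure D1:**
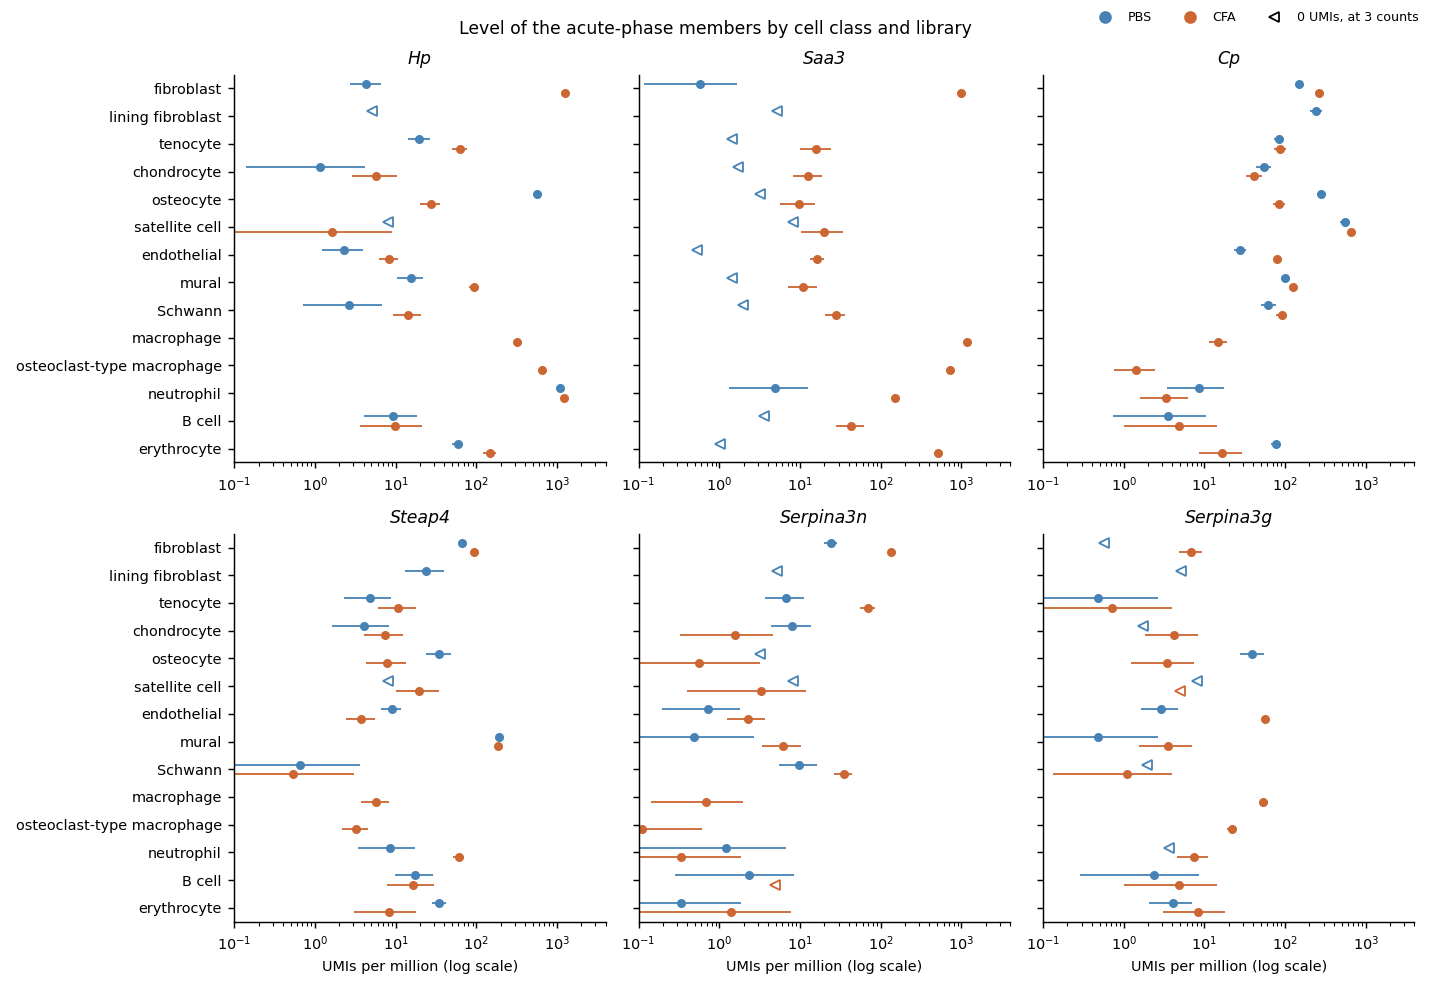
Each panel gives the level of a member in CPM (log axis) for each cell class with at least 30 cells in a library, PBS in blue and CFA in orange, with 95% Poisson intervals cut at the axis; open triangles stand for 0 UMIs and are drawn at the level of 3 counts. Fibroblast-like cells go from 4.35 to 1252 for Hp and from 0.567 to 989 for Saa3, while Cp and Steap4 differ less between the libraries.

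*Hp* in fibroblast-like cells was carried by few cells. In PBS 15 of 468 cells (3.21%, 1.80% to 5.23%) held an *Hp* UMI and the highest cell held 6. In CFA 97 of 371 cells (26.1%, 21.7% to 30.9%) held one, 45 held 10 or more, and those 45 held 97.5% of the UMIs. The 5 highest cells held 1186, 597, 506, 460 and 454 *Hp* UMIs, and the 10 highest together 65.3% of the total. For comparison, Schwann-like cells (medians of 3827 and 3431.5 UMIs in PBS and CFA) held one in 1.30% and 5.85% of cells, and B cell-like cells in 5.44% and 6.67%. The PBS share of fibroblast-like cells thus lay within that background. These shares are at unlike depth, with PBS medians of 11298.5 UMIs in fibroblast-like and 3944 in B cell-like cells. With every cell thinned to 1000 UMIs (4 PBS and 9 CFA cells were shallower and dropped) the shares in fibroblast-like cells were 0.862% and 14.1%, and in CFA Schwann-like and B cell-like cells 2.48% and 1.11%.

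The fibroblast-like class consisted of 3 clusters, and their makeup differed between the libraries. The cluster led by Apod, Inmt and Gdf10 held 212 PBS and 155 CFA cells. The cluster led by Pi16, with Mfap5, Cd248 and Sema3c, held 132 and 156, and carried the markers of adventitial fibroblasts, the cells around vessels that keep a progenitor-like state. The cluster led by Angptl1, Cilp and Sfrp1 held 124 and 60. Within the Apod cluster *Hp* was 4.72 CPM in PBS and 1983 CPM in CFA, a ratio of 420 (221 to 920). Within the Pi16 cluster it was 5.01 and 1192 CPM, a ratio of 238 (125 to 521). Within the Angptl1 cluster it was 3.15 and 284 CPM, a ratio of 90.1 (38.2 to 280). All 3 clusters were thus higher in CFA, whichever cluster supplied most cells. A cluster of 32 PBS and 6 CFA cells led by Prg4, lubricin, matched the markers of lining fibroblasts and held 0 *Hp* UMIs in PBS and 2 in CFA.

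The clusters differed in how *Hp* was spread. In the Pi16 cluster 41.7% of CFA cells held an *Hp* UMI and 34 of 156 held 10 or more. In the Apod cluster 14.2% held one and 9 of 155 held 10 or more, among them the highest cell of all with 1186. In the Angptl1 cluster 2 of 60 cells held 10 or more, 207 and 48 UMIs.

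**Figure D2:**
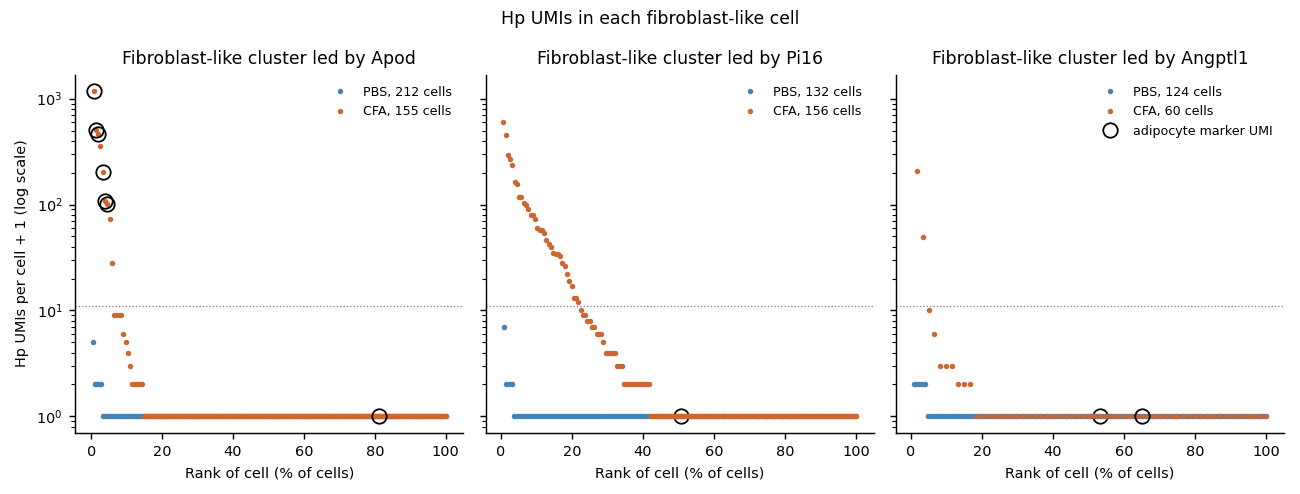
Hp UMIs plus 1 (log axis) in every fibroblast-like cell of the 3 clusters, cells ranked from highest to lowest and the rank given as a percentage, PBS in blue and CFA in orange; black circles mark cells with a UMI of an adipocyte marker and the dotted line marks 10 Hp UMIs. No PBS cell passes 6, and the CFA cells over the line number 9 in the Apod, 34 in the Pi16 and 2 in the Angptl1 cluster.

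Part of the Apod cluster's *Hp* came with markers of fat cells. Of its 9 CFA cells with 10 or more *Hp* UMIs, 6 held a UMI of Adipoq (adiponectin), Plin1, Lep or Cidec, and the 7 cells of the cluster with such a UMI held 83.4% of its *Hp* UMIs. In the Pi16 cluster no CFA cell held such a UMI and all 4 markers were at 0. Without these cells, a check chosen after the data were seen, *Hp* in CFA fibroblast-like cells was 821 CPM and the ratio to PBS 188 (125 to 296). In the Apod cluster alone it was then 365 CPM and the ratio 77.4 (40.4 to 170), and in the Pi16 cluster 1192 CPM as before. The part of fat cells in the Apod cluster's level beyond these values was not tested.

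The same markers went with *Hp* in the PBS library, outside the fibroblast-like cells. Osteocyte-like cells, from a cluster led by Bglap (osteocalcin) and another led by Plppr1, were at 562 CPM in PBS and 27.1 CPM in CFA, the reverse of the fibroblast-like order. Of the 72 PBS cells 15 held an adipocyte marker UMI, and those 15 held 96.6% of the class's *Hp* UMIs, at 2650 CPM. Without the cells with such a UMI the level was 24.0 CPM in PBS and 15.2 CPM in CFA, a ratio of 0.63 (0.33 to 1.23). Across all PBS cells that were not immune, erythroid or unnamed, the 26 cells with an adipocyte marker UMI held 79.6% of the *Hp* UMIs, whereas in CFA the 14 such cells held 34.7%. No PBS cell of the fibroblast-like class with an adipocyte marker UMI, 2 in all, held any *Hp*.

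Whether *Hp* follows Pi16 inside the class depended on how it was read. Pi16-positive cells had 634 CPM in CFA and Pi16-negative cells 2247 CPM, a ratio of 0.28 (0.27 to 0.30). Without the cells with adipocyte marker UMIs the ratio was 0.55 (0.52 to 0.59), and inside the Pi16 cluster 130 positive cells were at 850 CPM and 26 negative cells at 2573 CPM. Inside the Apod cluster the levels were 42.8 and 4030 CPM, and inside the Angptl1 cluster 320 CPM in 13 positive and 275 CPM in 47 negative cells, the other way round. With classes given cell by cell from the markers the ratio was 1.14, and with cells holding neutrophil marker UMIs left out it was 10.9, so no direction is read from it. After thinning, 12.6% of Pi16-positive and 16.5% of Pi16-negative cells held an *Hp* UMI. In PBS the ratio was 2.30 (0.90 to 6.62), from 23 UMIs. Cxcl12, a chemokine of perivascular and reticular stroma, had the widest difference of 10 stromal markers looked at in CFA, and is named for that. In PBS, where 23 UMIs are shared out, its ratio was 2.84 (0.94 to 11.5) and that of Penk was wider, 6.21 (2.51 to 16.3). Cxcl12-positive CFA cells had 1856 CPM of *Hp* and Cxcl12-negative cells 124 CPM, and the levels were 1597 and 31.6 CPM inside the Pi16 cluster, 3115 and 336 CPM inside the Apod cluster, and 604 and 9.51 CPM inside the Angptl1 cluster. Cells found positive were also deeper in the first 2 of these, with medians of 21956.5 against 12710 UMIs in the Pi16 and 10353 against 4122 UMIs in the Apod cluster, but not in the Angptl1 cluster (13438 against 16593). After thinning, 22.9% of Cxcl12-positive and 1.97% of Cxcl12-negative CFA cells held an *Hp* UMI, or 21.1% and 1.33% without the cells with adipocyte marker UMIs.

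The 45 CFA fibroblast-like cells with 10 or more *Hp* UMIs were compared with the other 326 for genes that the choice did not use. Cells with *Hp* were larger libraries, with a median of 23502 UMIs against 11646, so shares are given after thinning to 1000 UMIs. *Saa3* was then found in 42.2% (27.7% to 57.9%) of the *Hp* cells and 4.42% (2.44% to 7.30%) of the others. *Serpina3n* was found in 22.2% and 8.20%, *Steap4* in 17.8% and 6.62%, and *Cp* in 26.7% and 13.6%, or 15.4% of the *Hp* cells without adipocyte marker UMIs. *Serpina3g* was found in no cell of either group after thinning. Unthinned, it was found in 20% of the *Hp* cells and 3.37% of the others, at 16.9 and 4.26 CPM from 19 UMIs each. As levels, *Saa3* was 4477 CPM in the *Hp* cells and 111 CPM in the others, *Serpina3n* 215 and 113 CPM, and *Cp* 460 and 213 CPM.

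Leaving out the 6 *Hp* cells with adipocyte marker UMIs, *Saa3* remained at 4215 CPM and *Serpina3n* at 207 CPM, while *Cp* was 306 CPM. Outside the members, and among genes found in at least 50% of the *Hp* cells, the 10 with the highest ratio of CPM + 10 were Lcn2, Spp1, Epas1, Cxcl12, Sdc1, Cd74, Tmem176a, Dbi, Rgcc and Sod2. Lcn2, the siderophore-binding protein lipocalin 2, was 488 CPM in the *Hp* cells and 42.1 CPM in the others, and 281 CPM without the adipocyte-marker cells. Dbi, which binds acyl-CoA, was 705 and 191 CPM but 240 CPM without those cells, where its ratio of CPM + 10 was 1.24. Cxcl12 was 1423 and 358 CPM. Of the other stromal markers looked at, Prg4 was also higher, at 1919 and 1052 CPM, and the rest were lower. Among these, Smoc2 was 118 and 277 CPM, Col15a1 57.9 and 139 CPM, and Penk 0.891 and 20.4 CPM. Slc39a14, a zinc and iron importer induced by interleukin-6, was 610 and 204 CPM, and Il6 itself 239 and 72.8 CPM. Lrg1 was 134 CPM in the *Hp* cells but 1.01 CPM in those without adipocyte marker UMIs.

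Markers of other cells were set beside these values. The neutrophil markers S100a8 and S100a9 were 32.1 and 26.7 CPM in the *Hp* cells against 55.6 and 68.4 CPM in the others, and the macrophage markers C1qa, C1qb and C1qc were 2.67, 3.56 and 0 CPM against 17.3, 15.2 and 10.8 CPM. Of the 9 neutrophil markers 7 were lower in the *Hp* cells, and Ltf (6.23 against 5.83 CPM) and Mmp8 (2.67 against 0.448 CPM, from 3 and 2 UMIs) were higher. Of the 6 macrophage markers 4 were lower, and Adgre1 (7.12 against 1.34 CPM) and Csf1r (9.80 against 6.05 CPM) were higher. Of the 6 markers of osteoclast-type macrophages 4 were higher in the *Hp* cells, Spp1 at 835 against 86.1 CPM, Ctsk at 519 against 336 CPM, Acp5 at 62.3 against 32.9 CPM and Dcstamp at 1.78 against 0.672 CPM (2 and 3 UMIs). Mmp12 was lower, 7.12 against 9.86 CPM, and Ocstamp was at 0 in both. Ctsk was not among the markers that named that class here, and was found in 65.6% of the other fibroblast-like cells. The part of these cells in the *Hp* level was not tested. Of the 8 fibroblast markers 7 were lower in the *Hp* cells by CPM, Dcn at 6577 against 9857 CPM, Gsn at 2780 against 7759 CPM and Lum at 404 against 741 CPM among them, and Col3a1 was higher, 14858 against 9521 CPM. Without thinning, Dcn, Col3a1 and Pdgfra were found in 95.6%, 100% and 86.7% of the *Hp* cells and in 94.2%, 97.2% and 85.6% of the others. Of the 45 cells, 9 were among the 5% of CFA cells with the highest doublet score, against 15 of the other 326, and 3 of the 39 without adipocyte marker UMIs. The part of doublets was not tested beyond this.

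**Figure D3:**
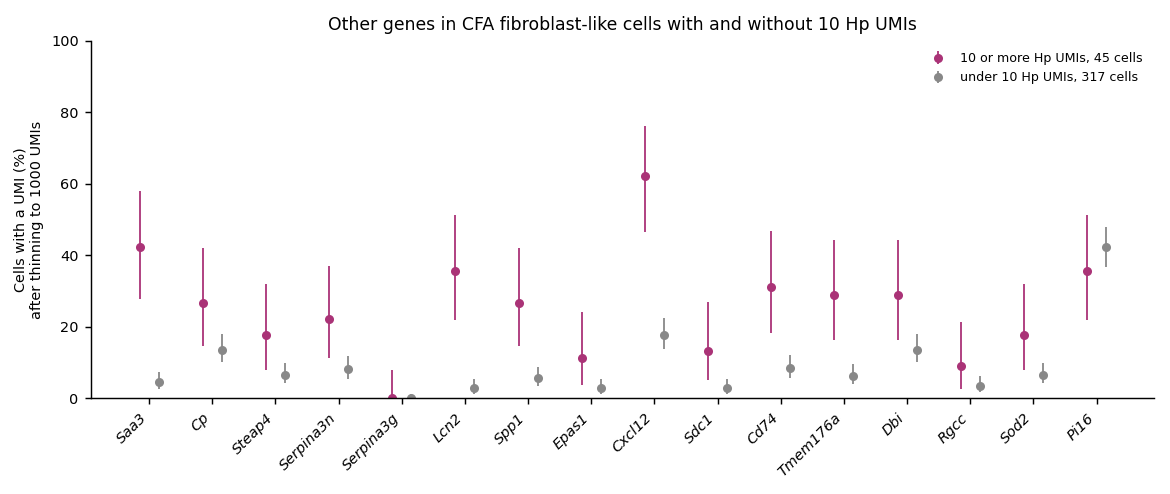
Share of CFA fibroblast-like cells with a UMI of each gene after thinning every cell to 1000 UMIs, for cells with 10 or more Hp UMIs (45 cells) and under 10 (317 cells), with 95% Clopper-Pearson intervals. The first 5 genes are members, the next 10 had the highest ratio of CPM + 10 among genes found in at least 50% of the Hp cells, and Pi16 is at the right; Saa3 is at 42.2% and 4.42%, whereas Pi16 is at 35.6% and 42.3%.

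*Saa3*, the serum amyloid made at sites of inflammation, was nearly absent from the PBS library and in CFA was highest in macrophage-like, fibroblast-like and osteoclast-type macrophage-like cells. All kept PBS cells together held 57 *Saa3* UMIs, of which 30 were in 19 macrophage-like cells (147 CPM), 29 of them in 1 cell, and 3 in fibroblast-like cells. The CFA cells held 19117, with 1168 CPM (1136 to 1200) in macrophage-like, 989 CPM (963 to 1015) in fibroblast-like and 728 CPM (710 to 746) in osteoclast-type macrophage-like cells. Those 3 classes held 26.9%, 28.9% and 34.6% of the *Saa3* UMIs. Neutrophil-like cells, with *Hp* at 1205 CPM, were at 151 CPM of *Saa3* and held 2.36%. The levels of the 3 did not overlap in counting error. A single cell held 1258 of the 5521 UMIs in fibroblast-like cells, a spread between cells that these intervals do not cover. The ratio in fibroblast-like cells was 1743, but with 3 PBS UMIs its interval ran from 596 to 8456, and with each cell's CPM averaged it was 456. Without cells holding neutrophil gene UMIs it was 262 (45.7 to 10472), from 1 and 81 UMIs.

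Inside the fibroblast-like class *Saa3* too was held by few cells. It was 1368 CPM in CFA in the Apod cluster, 1069 CPM in the Pi16 cluster and 136 CPM in the Angptl1 cluster, against 2, 1 and 0 UMIs in PBS. Without the cells with adipocyte marker UMIs the Apod cluster was at 907 CPM, below the Pi16 cluster, which stayed at 1069 CPM. In CFA 24.0% of the cells held a *Saa3* UMI, the 10 highest cells held 81.1% of the UMIs and a single cell held 1258. Without that cell, and the highest PBS cell, the ratio was 2031. Of the 97 cells with an *Hp* UMI 51.5% also held *Saa3*, and of the 274 without one 14.2%, at medians of 23370 and 10724.5 UMIs. Cells that should lack *Saa3* also held some. CFA Schwann-like, endothelial-like and satellite cell-like cells stood at 27.6, 16.2 and 19.6 CPM, and erythrocyte-like cells at 511 CPM, where 10 of the 66 cells held 98.4% of it.

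*Cp*, the ferroxidase ceruloplasmin, was highest, among classes of at least 30 cells, in satellite cell-like cells, at 552 CPM in PBS and 656 CPM in CFA, with a ratio of 1.19 (1.002 to 1.41). Lymphatic endothelial-like cells, 18 and 12 in number, were higher still at 1332 and 2319 CPM. An unnamed cluster of 13 and 8 cells, led by Tenm2 with Cldn1, Sfrp5 and Krt19, was at 1310 and 961 CPM. Fibroblast-like cells were at 148 CPM (138 to 159) in PBS and 263 CPM (249 to 276) in CFA, a ratio of 1.77 (1.63 to 1.94). The ratio was 1.70 in the Apod, 2.38 in the Pi16 and 2.49 in the Angptl1 cluster, and 1.54 without the cells with adipocyte marker UMIs. The Apod cluster was the highest of the 3 in both libraries, at 287 and 487 CPM.

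Other stroma differed in *Cp* by place. Endothelial-like cells were at 27.6 CPM in PBS and 78.7 CPM in CFA, a ratio of 2.85 (2.38 to 3.43). The endothelial-like cluster led by Nebl was at 23.9 and 108 CPM, and that led by Timp4 at 7.75 and 29.4 CPM. The venular cluster led by Plvap held 103 of the 155 PBS and 356 of the 528 CFA UMIs and was at 93.7 and 137 CPM, a ratio of 1.46 (1.17 to 1.84). This cluster made up 84 of 690 PBS and 169 of 955 CFA cells, and its ratio was smaller than that of the class. In the cluster led by Ccdc85a the ratio was 0.28 (0.05 to 1.03), from 12 and 3 UMIs. The mural-like cluster led by Myh11, smooth muscle, was at 9.46 and 59.5 CPM, a ratio of 6.29 (3.36 to 13.02), and the mural-like cluster led by Actg2 with Rgs5 and Kcnj8 at 216 and 292 CPM. Tenocyte-like cells stood at 84.3 and 86.6 CPM with a ratio of 1.03 (0.81 to 1.30). Osteocyte-like cells were lower in CFA, at 280 and 83.6 CPM, and without the cells with adipocyte marker UMIs at 192 and 58.4 CPM, a ratio of 0.30 (0.23 to 0.40). The class mixed 2 clusters in different parts, the Bglap cluster with 35 PBS and 28 CFA cells and the Plppr1 cluster with 37 and 86. Nearly all *Cp* UMIs lay in the Bglap cluster, at 503 CPM in PBS and 265 CPM in CFA, and without the cells with adipocyte marker UMIs its ratio was 0.45 (0.35 to 0.59). Osteoclast-type macrophage-like, neutrophil-like and B cell-like cells stood between 1.43 and 8.50 CPM.

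*Steap4*, the metalloreductase, was a gene of mural and fibroblast-like cells in both libraries. Mural-like cells were highest, at 191.5 CPM (173 to 211) in PBS and 186 CPM (169 to 205) in CFA. Within them the Actg2 cluster was at 314 and 460 CPM, a ratio of 1.47 (1.24 to 1.73), and the Myh11 cluster at 94.6 and 79.1 CPM, a ratio of 0.84 (0.64 to 1.09). Of the classes with at least 30 cells, fibroblast-like cells followed at 67.1 CPM (60.3 to 74.5) in PBS and 92.8 CPM (84.9 to 101) in CFA, a ratio of 1.38 (1.21 to 1.59). That ratio was not shared by the clusters. In the Pi16 cluster the levels were 31.2 and 82.1 CPM and the ratio 2.63 (1.96 to 3.58), and in the Apod cluster 133 and 156 CPM and 1.18 (0.98 to 1.41). In the Angptl1 cluster they were 29.0 and 25.6 CPM and 0.88 (0.52 to 1.46), or 1.22 (0.70 to 2.10) without the cells with adipocyte marker UMIs. Osteocyte-like cells were at 34.9 CPM in PBS and 7.91 CPM in CFA, and at 3.99 and 7.59 CPM without the cells with adipocyte marker UMIs.

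A small cluster of neutrophil-like cells differed from the rest in *Steap4*. The cluster led by Il1f9, Acod1 and Hcar2 held 126 CFA and 6 PBS cells and was at 279 CPM (228 to 338) in CFA, where 37.3% of its cells held a UMI. The cluster led by Camp and Ngp, genes of granule formation, held 6 *Steap4* UMIs in PBS and 77 in CFA, the latter 29.8 CPM. The same Il1f9 cluster was at 453 CPM of *Hp* in CFA, and the Camp cluster at 1317 CPM. Endothelial-like cells had less *Steap4* in CFA, 8.91 and 3.73 CPM, most of it in the venular cluster led by Plvap, Selp and Ackr1, where 36 UMIs (32.7 CPM) in PBS stood against 23 in CFA, a ratio of 0.27 (0.15 to 0.47).

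*Serpina3n*, an inhibitor of neutrophil elastase and granzyme-type proteases, was a gene of fibroblast-like cells. These held 66.8% of its UMIs in PBS and 75.5% in CFA. The level was 24.0 CPM (20.01 to 28.6) in PBS and 133 CPM (124 to 143) in CFA, a ratio of 5.56 (4.60 to 6.76). Without cells holding neutrophil gene UMIs it was 3.79. The clusters differed again. The ratio was 11.2 (7.73 to 16.8) in the Apod cluster, from 16.2 to 182 CPM, and 6.72 (4.79 to 9.67) in the Pi16 cluster, from 20.6 to 138 CPM. In the Angptl1 cluster the levels were 37.2 and 40.9 CPM and the ratio 1.10 (0.72 to 1.67). Its UMIs were less concentrated than those of *Hp*. In CFA 41.5% of the cells held one, and the 10 highest cells held 37.6%.

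Outside the class, *Serpina3n* was 9.82 and 34.7 CPM in Schwann-like cells and 6.71 and 68.7 CPM in tenocyte-like cells, where 1 CFA cell held 81 of the 96 UMIs. Macrophage-like, osteoclast-type macrophage-like, neutrophil-like and B cell-like CFA cells held between 0 and 3 UMIs in each class. In these myeloid and B cell-like classes, unlike *Hp* and *Saa3* in the myeloid ones, *Serpina3n* was thus at or under the limit of 3 counts. Lymphatic endothelial-like cells held 11 UMIs in PBS (41.6 CPM) and 34 in CFA (198 CPM), 26 of the latter in 1 cell.

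*Serpina3g*, an intracellular inhibitor of cysteine proteases known from activated lymphocytes and interferon responses, was highest in endothelial-like and macrophage-like cells in CFA. In PBS, 42 of its 117 UMIs were in an unnamed cluster led by Siglech and 37 in osteocyte-like cells, described below. Endothelial-like cells were at 2.85 CPM in PBS (16 UMIs) and 56.3 CPM in CFA (378 UMIs), a ratio of 19.8 (12.0 to 34.9). The venular cluster held 352 of the 378, and its level was 14.6 CPM in PBS and 135 CPM in CFA, a ratio of 9.29 (5.64 to 16.4). The class ratio is thus larger than that of the cluster, which made up 84 of 690 PBS and 169 of 955 CFA cells. Macrophage-like CFA cells were at 53.5 CPM and osteoclast-type macrophage-like cells at 22.1 CPM. The cluster led by Siglech, a plasmacytoid dendritic cell gene, was at 85.1 CPM in PBS and 56.7 CPM in CFA, a ratio of 0.67 (0.43 to 1.03).

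In fibroblast-like cells *Serpina3g* was near the limit of detection. PBS held 0 UMIs in 468 cells, which allows 3 counts or 0.567 CPM, and CFA held 38 UMIs, or 6.80 CPM (4.82 to 9.34). The CFA level was at least 12.0-fold higher. With classes given cell by cell PBS held 11 UMIs and CFA 28, a ratio of 2.41 (1.16 to 5.36). Schwann-like CFA cells, taken as background, were at 1.08 CPM, and B cell-like CFA cells at 4.88 CPM from 3 UMIs, an interval of 1.01 to 14.3 CPM that includes the fibroblast-like level. Osteocyte-like PBS cells held 37 UMIs, 39.1 CPM, and CFA cells 6, 3.39 CPM, and 34 of the 37 were in the 15 PBS cells with an adipocyte marker UMI.

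**Figure D4:**
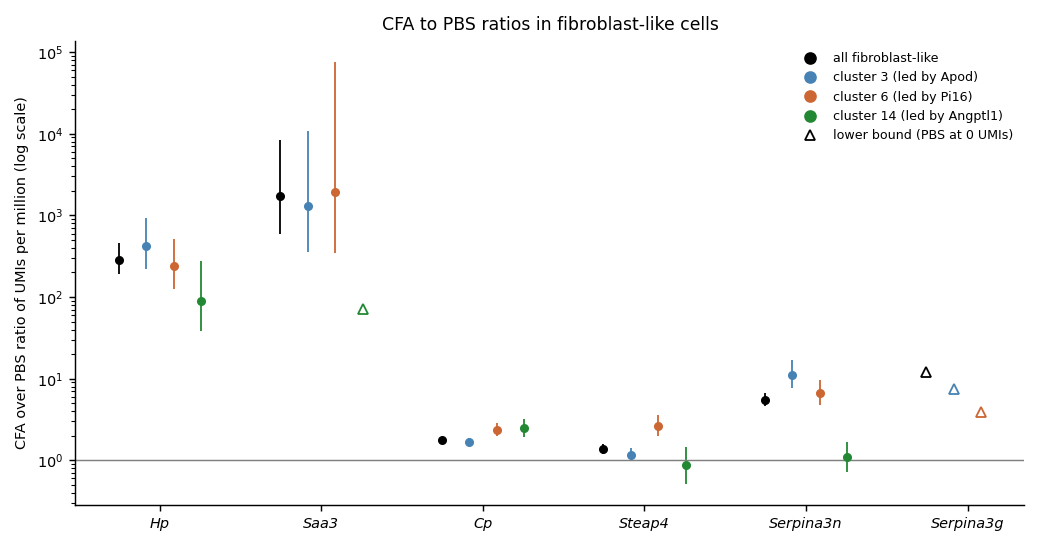
Ratio of CFA to PBS CPM (log axis) of each member in all fibroblast-like cells (black) and in each of the 3 clusters, with exact 95% counting intervals; open triangles are lower bounds where PBS held 0 UMIs. Hp stands at 90.1 to 420 in the 3 clusters, whereas Serpina3n and Steap4 are near 1 in the Angptl1 cluster.

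Set against all genes of the class, 12253 genes held at least 10 UMIs in fibroblast-like cells in each library, of which 627 (5.12%) were at least 2-fold higher in CFA and 426 (3.48%) at least 2-fold lower. The median ratio over these genes was 1.0. Of the 6 members 4 met the limit of 10 UMIs, and *Hp* and *Serpina3n* were over 2-fold, while *Cp* and *Steap4* were not. *Saa3* and *Serpina3g* did not meet it because of their PBS counts. Since the members were picked with this contrast in view, the share is given as background only.

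Related genes were described by lists that leave the members out of the counts below. Of the list of acute-phase proteins 9 further genes met the limit in fibroblast-like cells, of which 6 were at least 2-fold higher and 1 lower in CFA, with a median ratio of 2.96. Complement component C3 was at 311 CPM in PBS and 2157 CPM in CFA, a ratio of 6.94 (6.59 to 7.31), and complement factor B (Cfb) at 41.8 and 340 CPM, 8.14 (7.08 to 9.40). Lcn2 was at 21.9 and 132 CPM, 6.01 (4.94 to 7.38). Lbp, which carries bacterial lipopolysaccharide, was at 170 and 502 CPM, and Cd14, its receptor, at 2.27 and 26.0 CPM. The protease scavenger A2m was lower, at 14.4 and 4.66 CPM.

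In the list of STEAP, iron and copper genes 12 further genes met the limit, of which 4 were higher and 1 lower, with a median ratio of 1.44. Slc39a14 was at 40.1 CPM in PBS and 286 CPM in CFA, 7.13 (6.17 to 8.26), and Steap2 at 7.94 and 27.8 CPM, 3.50 (2.47 to 5.04). The iron importer Slc11a2 was at 12.7 and 26.3 CPM and metallothionein Mt2 at 324 and 824 CPM. Slc40a1, ferroportin, the iron exporter that ceruloplasmin works with, was lower, at 5.10 and 1.97 CPM, 0.39 (0.17 to 0.80). It was also the 1 lower gene of the 8 further genes of the haptoglobin and heme clearance list, where none was higher and the median ratio was 1.06.

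Of 24 genes of signalling to acute-phase genes, 6 were higher and none lower, with a median ratio of 1.22. Tnfrsf1b was at 3.78 and 20.2 CPM, Il6ra at 20.6 and 50.5 CPM, Il17ra at 17.8 and 39.9 CPM, Il1r1 at 95.1 and 202 CPM, and Jak2 at 34.0 and 70.9 CPM. Of 7 genes of the SAA receptor and protease target list none was higher, the median ratio was 0.94, and Elane, neutrophil elastase, was lower at 6.99 and 2.69 CPM. The neutrophil markers together were also lower in CFA fibroblast-like cells, 158 CPM from all 9 markers against 524 CPM in PBS, most of it in the Pi16 cluster (1369.7 CPM against 149 CPM in CFA), and their part in the Elane value was not tested. Markers of several other cells were higher in the same CFA cells, the 5 monocyte markers from 28.2 CPM in PBS to 478 CPM in CFA, the 6 macrophage markers from 4.16 to 46.7 CPM and the 6 osteoclast-type macrophage markers from 289 to 659 CPM. The last list includes Ctsk, which was not among the markers that named its class. The 4 adipocyte markers went from 0.378 to 52.3 CPM and the 8 fibroblast markers from 43620 to 30293 CPM. Their part in the values of the class was not tested. Of the *Serpina3* cluster list no further gene met the limit.

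In endothelial-like cells 11934 genes met the limit, of which 3.51% were at least 2-fold higher and 3.95% lower in CFA. Of the members *Hp*, *Cp* and *Serpina3g* were past 2-fold higher there and *Steap4* lower, from which nothing is read. Of 6 further acute-phase genes 3 were higher, with a median ratio of 2.97. Lrg1, a glycoprotein of inflamed vessels, was at 58.6 CPM in PBS and 235 CPM in CFA, 4.01 (3.56 to 4.53), Cfb at 2.67 and 34.6 CPM, and the C1 inhibitor Serping1 at 28.5 and 121 CPM. Of the *Serpina3* cluster 1 further gene met the limit, Serpina3f at 2.32 and 10.6 CPM, 4.57 (2.51 to 8.99). Of 11 further STEAP, iron and copper genes Mt2 (9.62 and 52.9 CPM) and Slc39a14 (31.5 and 71.2 CPM) were higher, and the ferroxidase Heph was lower (18.2 and 7.90 CPM). Of 25 signalling genes Il6ra (3.56 and 12.4 CPM) and Il1r1 (45.1 and 150.5 CPM) were among the higher and Tnf was lower (7.84 and 2.09 CPM). None of the 8 further haptoglobin and heme genes or the 8 SAA receptor genes was past 2-fold. The venular cluster led by Plvap, with Lrg1 among its leading genes, made up 84 of 690 PBS and 169 of 955 CFA cells. The part of that makeup in the ratios and counts of this class was not tested.

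**Figure D5:**
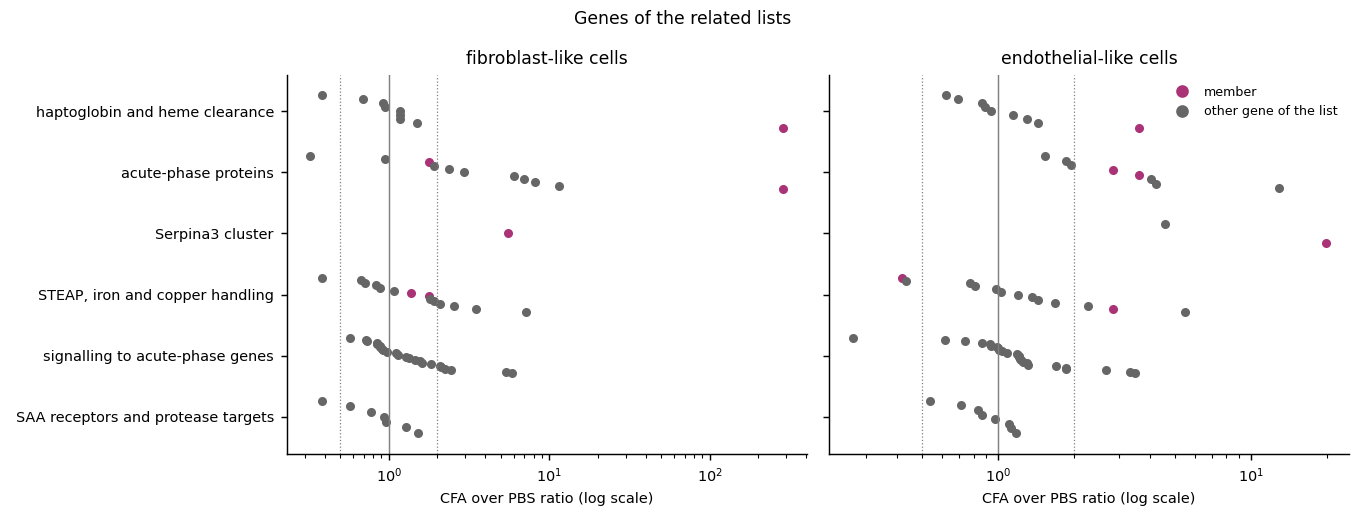
CFA to PBS ratio (log axis) of each gene that reached 10 UMIs in both libraries, by list, in fibroblast-like cells at the left and endothelial-like cells at the right; members are in purple, other genes in grey, and dotted lines mark 2-fold higher and lower. In fibroblast-like cells the median over the further acute-phase genes is 2.96 and over the further heme clearance genes 1.06.

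For each member the genes with the most similar pattern were named by the Pearson correlation of log2(CPM + 10) over 25 points, each a cell class with at least 30 cells in a library, among 8710 genes. The points share their 2 libraries and some their classes, so no p-value is given. Nearest to *Hp* were Acpp (0.78), Alox5ap (0.77), Dram1 (0.76), Cd300a (0.76) and G6pdx (0.76). Nearest to *Saa3* were Cfb (0.92), Ccl5 (0.86), Dram1 (0.85), H2-Aa (0.85) and Cxcl16 (0.84). *Cp* was nearest to Tln2 (0.92), Errfi1 (0.91), Abca5 (0.90), Cdc42ep5 (0.90) and Gas1 (0.90), and *Steap4* to Ggt5 (0.82), Aoc3 (0.80), Enpep (0.78), Pi15 (0.77) and Lgi2 (0.76). *Serpina3n* was nearest to Masp1 (0.83), Prph (0.83), Apod (0.82), Rgs7 (0.82) and Cadps (0.81), and *Serpina3g* to Rasa4 (0.74), Arrdc4 (0.74), P2ry6 (0.73), Csf2rb2 (0.73) and Fam117b (0.73). Among the members themselves *Hp* and *Saa3* had the highest value, 0.64, followed by *Saa3* and *Serpina3g* at 0.51 and *Hp* and *Serpina3g* at 0.44. *Cp* was at -0.32 with *Hp* and -0.34 with *Saa3*.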

How the data were processed

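The authors digested the joints, depleted CD45-positive cells and made 1 droplet library for each group. The deposited matrices hold raw UMI counts per gene and barcode, made by the authors with Cell Ranger 7.0.1 on GRCm38 (mm10). No normalization had been applied to them. The annotation release is not given in the sources used here, and the labels and the methods name different digestion enzymes and kit versions.

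Barcodes with at least 500 genes, at most 10% mitochondrial and at most 1% hemoglobin UMIs were kept. The libraries were normalized and integrated on 2941 genes in Seurat 5.3.0 (R 4.3.3), with the members and related lists left out, and clustered on 200 components at resolution 1.5. A cluster was named where at least 3 canonical markers passed a share of 25% of its cells and a fold of 2 over the other cells, and its leading genes were not mainly those of another class. A cluster with a median depth under 0.333 of that of its libraries stayed unnamed unless a marker of its class was among its 10 leading genes, which left 2 clusters with endothelial markers (62 PBS and 192 CFA cells, and 43 and 97) and 1 with B cell markers (62 and 61) unnamed. Unnamed cells made up 10.0% of PBS and 14.7% of CFA cells. Scrublet (scanpy 1.11.5) marked 21 PBS and 2 CFA cells at its own threshold, which has not worked, so no cell was removed as a doublet and leaving out the top 5% of scores was an alternative. Free RNA was not removed. Of the barcode sequences 10 were shared by the deposited libraries.

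Levels are summed UMIs of a gene over all UMIs of the cells, times 1000000 (CPM), with exact Poisson intervals, and ratios have exact conditional binomial intervals (Python 3.11.15, scipy 1.17.1). Shares have Clopper-Pearson intervals, also with each cell thinned to 1000 UMIs. All are 95% and cover counting error only. With 1 library per group no test was made and no p-value was computed. A level of 0 is set at 3 counts. On simulated counts for fibroblast-like cells, all tested genes changed 3- or 4-fold were past 2-fold, and 0.426% of 12670 unchanged genes. The simulated counts held Poisson error alone, with no spread between cells, clusters or libraries. They therefore give no rate of false calls for these data.

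The members and all lists were chosen with earlier results of these data known. Named were the 6 members in classes with at least 30 cells, the genes of the related lists past 2-fold that reached 10 UMIs in both libraries, and for each member the 5 genes of most similar pattern among those reaching 50 CPM. Other genes, small clusters and classes under 30 cells were named after their values were seen. The motif letters, the adipocyte-marker check and the stromal markers beside Pi16 were also chosen after the data were seen. Promoter windows come from RefSeq, where 5 of the 6 members were matched. Some genes of the related lists count in the list totals and are not reported here by name.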

Additional observations from a re-analysis of the deposited data

Results flagged for a closer look

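Several members stood lower in CFA in a class whose fibroblast-like counterpart stood higher, a difference between classes that was not tested. In osteocyte-like cells the CFA to PBS ratio was 0.0483 for *Hp*, 0.298 for *Cp* and 0.227 for *Steap4*. Without the cells holding adipocyte marker UMIs the ratios were 0.634 (0.335 to 1.23) for *Hp*, 0.305 for *Cp* and 1.90 (0.523 to 10.4) for *Steap4*, but the mix of the 2 clusters of the class also differed. In the Bglap cluster (35 PBS and 28 CFA cells) the ratios without those cells were 0.460 (0.200 to 1.02) for *Hp* and 0.454 (0.348 to 0.591) for *Cp*, and in the Plppr1 cluster (37 and 86 cells) *Hp* went from 1 to 14 UMIs, a ratio of 4.86 (0.739 to 205) with all its cells. In erythrocyte-like cells the ratio was 0.218 for *Cp* (76.0 to 16.6 CPM) and 0.240 for *Steap4* (34.5 to 8.29 CPM), in cells whose median depth was 18038 UMIs in PBS and 2211 in CFA. *Steap4* was also lower in CFA in endothelial-like cells, at 0.418, and *Serpina3n* in chondrocyte-like cells, at 0.196 (0.0362 to 0.703), from 8.03 and 1.58 CPM. The 27 cells of 1 of its 2 clusters were in PBS alone, and in the cluster led by Col2a1 the ratio was 0.289 (0.0494 to 1.21), from 8 and 3 UMIs.

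The barcodes left out for over 1% hemoglobin UMIs, 3178 in PBS and 339 in CFA, held members too. *Saa3* was 53.9 CPM in the CFA barcodes and 4.94 CPM in the PBS barcodes. *Serpina3g* was 7.37 CPM in CFA and 2.91 CPM in PBS. *Hp* was 53.9 CPM in CFA and 54.3 CPM in PBS.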

How the results depend on the processing

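Of 171 values under an alternative, 120 lay within the counting interval of the reported value (for numbers of genes, within 1.5 times), 43 lay outside it and 8 turned the direction of a ratio whose interval excluded 1. The interval is wide for *Saa3*, whose ratios within it ran from 848 to 2481. *Serpina3g* has a lower bound and no interval, and its values counted with the 120 were set against one computed as if PBS held 3 UMIs and ran from 3.92 (a lower bound) to 33.8. The number of genes at least 2-fold higher ran from 478 to 933. The cause was not tested. *Hp* in fibroblast-like cells was higher in CFA throughout, at a ratio of 148 with no hemoglobin limit, 81.6 with each cell classed on its own, 1057 without cells holding neutrophil gene UMIs, 188 without cells holding adipocyte marker UMIs and 90.1 in the Angptl1 cluster. For *Saa3* those with no hemoglobin limit, without neutrophil-gene cells, averaged over cells and in the Angptl1 cluster were 403, 262, 456 and at least 71.8. *Cp* was 1.61 at resolution 0.8, 1.19 with each cell on its own, 1.497 without the highest doublet scores, 1.34 without neutrophil-gene cells, 1.95 averaged over cells, 1.54 without adipocyte-marker cells, 2.38 in the Pi16 cluster and 2.49 in the Angptl1 cluster. *Steap4* was 1.18 in the Apod, 2.63 in the Pi16 and 0.88 in the Angptl1 cluster, where its direction turned. *Serpina3n* was 3.79 without neutrophil-gene cells, 11.2 in the Apod and 1.10 in the Angptl1 cluster. *Serpina3g* was 2.41 with each cell on its own. Leaving out neutrophil-gene cells kept 202 PBS and 63 CFA fibroblast-like cells, which limits every value under it.

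In neutrophil-like cells the *Hp* ratio was 2.21 with no hemoglobin limit and 1.29 relative to the median gene, but 0.973 with at least 1000 genes, 0.945 on log-normalized counts, 0.870 with each cell on its own, 0.913 without the highest doublet scores and 0.918 averaged over cells. The share of PBS fibroblast-like cells with an *Hp* UMI was 5.61% with no hemoglobin limit, 0.990% without neutrophil-gene cells, 0.862% thinned to 1000 and 0.674% thinned to 2000 UMIs. The CFA share was 18.5% with each cell on its own, 17.5% without neutrophil-gene cells, and 14.1% and 16.5% thinned. The Pi16 ratio of *Hp* in PBS, reported as 2.30 with an interval on both sides of 1, was 0.405 with each cell on its own. In CFA it was 0.429 with no hemoglobin limit, 0.340 at 20% mitochondrial UMIs, 0.345 at 1000 genes, 0.251 log-normalized, 0.392 with the lists kept in clustering, 0.546 without the highest doublet scores, 0.325 averaged over cells and 0.552 without adipocyte-marker cells, and turned to 1.14 with each cell on its own and 10.9 without neutrophil-gene cells. Without neutrophil-gene cells 175 genes were at least 2-fold lower.

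The checks on adipocyte-marker cells, on the highest cell and on single clusters were chosen after seeing the data. *Serpina3g* in the Angptl1 cluster, and *Serpina3g* and the PBS Pi16 ratio without neutrophil-gene cells, gave no value for want of UMIs. No paired analysis was possible because each condition is 1 library, and no replicate was left out for the same reason. Ratios of *Saa3* and *Serpina3g* are limited by PBS counts of 3 and 0.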
